A study of Homo sapiens with 8 samples.

Results

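Lysosomal hydrolases and membrane proteins were followed here as a set of 40 genes, chosen by name and role: 7 proteins of the lysosomal membrane, 7 proteases, 10 glycosidases, 4 sulfatases, 6 enzymes and activators of lipid breakdown and 6 subunits or accessory proteins of the proton pump. All 40 were present among the 16153 genes of the expression table. The 8 libraries were made from HMEC-1, an established line of endothelial cells from small vessels of human skin that a viral T antigen keeps dividing. In the space_microg group (3 libraries) the cells flew to the International Space Station and were exposed to weightlessness. In the space_1g group (2 libraries) they flew in the same incubator but in its centrifuge, which restored 1 g. The ground group (3 libraries) was integrated in a facility of the home laboratory and run in parallel with the flight. Cells of every group had been seeded on gelatin-coated plastic coverslips in MCDB131 medium with serum, hydrocortisone and EGF, held at 37 °C before they were loaded into automated culture units, and fixed there with an RNA-preserving reagent. Flight samples were fixed in orbit and brought back to Earth, so launch, the stay in orbit and return cannot be told apart in a comparison with the ground. Nothing in the labels tells whether replicates came from separate cultures, so the p-values cover the spread among these 8 libraries alone, and that spread may be technical.

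Lysosomes are acidic organelles that digest proteins, sugars and lipids delivered by endocytosis and autophagy. A vacuolar proton pump acidifies the lumen, heavily glycosylated membrane proteins line it, and soluble hydrolases reach it mostly through mannose 6-phosphate receptors. Many of these genes share a promoter element, an E-box bound by TFEB and its relatives TFE3 and MITF, through which they can be switched on together. In endothelium, lysosomes take up lipoproteins and turn over receptors. Inherited loss of most of these enzymes causes a storage disease.

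Values are read counts scaled to library size (CPM), and the libraries held 24248964 to 35388757 reads over all listed genes. Every member rested on at least 145 reads in every library, the fewest being those of IDUA in space_microg replicate 2. Along the first principal component of all genes, space_1g replicate 1 (score 60.7) and ground replicate 3 (score 64.7) stood apart from the other 6 (-31.1 to 1.51), and values without them are given where they move a result. In them the summed level of 15 interferon-induced genes was 3924 and 4697 CPM against 415 to 1766 CPM in the other 6, and that of 15 mitosis genes 1848 and 2112 CPM against 3884 to 4607 CPM. In space_microg replicate 2, transcript GC content and length explained 53.4% of how genes departed from their 8-library mean, and 2.34% to 21.3% in the others. All 12 endothelial markers looked for were measured, with sums of 1462 to 2271 CPM in space_microg, 1667 to 1847 CPM in space_1g and 2191 to 2584 CPM on the ground. These sums were lower in flight on the whole, and their part in the lysosomal values was not tested. Of 9 markers of leukocytes and macrophages, which are rich in lysosomes, CD14 alone was measured, at 1.04 to 2.88 CPM. The other 8 were absent from the expression table. Every listed gene had at least 1.00 CPM before scaling in its second-highest library, so absence need not mean that a gene had no reads. The summed markers of the further cell types ran from 113 to 330.5 CPM for fibroblasts (4 of 7 measured), 45.3 to 84.2 CPM for smooth muscle and pericytes (4 of 6) and 1.63 to 4.63 CPM for keratinocytes (2 of 6), with no erythroid marker measured of 4.

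Promoter windows of RefSeq (build GRCh38.p14, from 250 bases before to 50 after a gene's start) were at hand for 29 of the 40 members. The E-box hexamer CACGTG, which reads the same on both strands, lay in 9 of these 29 windows (31.0%), and in 10.1% of the 10198 windows of measured genes. The octamer TCACGTGA, which contains the hexamer and is also its own reverse complement, lay in 6 of the members' windows (20.7%) and in 1.92% of those of measured genes. The stretches below span every hexamer of the 9 members and are shown because lysosomal genes are known to be regulated together through E-boxes. The hexamer alone is a looser match than the octamer. They are written 5′ to 3′ on the strand of the gene, with the hexamers in capitals.
LAMP1, chr13:113297035-113297255, plus strand: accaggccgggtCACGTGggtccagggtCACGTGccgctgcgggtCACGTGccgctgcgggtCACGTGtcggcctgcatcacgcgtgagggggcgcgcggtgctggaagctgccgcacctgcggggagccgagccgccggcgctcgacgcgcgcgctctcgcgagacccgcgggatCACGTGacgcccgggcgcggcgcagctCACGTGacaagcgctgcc
MCOLN1, chr19:7522571-7522627, plus strand: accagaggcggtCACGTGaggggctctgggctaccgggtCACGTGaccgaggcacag
CD63, chr12:55729172-55729201, minus strand: ccgggtaggggcCACGTGgccctggccggg
CLN3, chr16:28492058-28492116, minus strand: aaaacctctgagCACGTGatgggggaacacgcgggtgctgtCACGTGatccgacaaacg
CTSA, chr20:45891281-45891327, plus strand: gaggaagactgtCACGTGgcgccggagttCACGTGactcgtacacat
CTSD, chr11:1763957-1763986, minus strand: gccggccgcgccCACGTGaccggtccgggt
GAA, chr17:80101493-80101567, plus strand: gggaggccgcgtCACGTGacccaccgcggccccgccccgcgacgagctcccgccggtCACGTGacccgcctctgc
NEU1, chr6:31862930-31862959, minus strand: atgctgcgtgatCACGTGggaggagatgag
ATP6V0D1, chr16:67481199-67481228, minus strand: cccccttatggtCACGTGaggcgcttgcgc
LAMP1 held 6 hexamers, the farthest 192 bases before the start. LAMP1, MCOLN1 and GAA each held 2 full octamers, and in CLN3, CTSA and ATP6V0D1 there was 1. CD63, CTSD and NEU1 held 0. A match describes these letters and does not show that a factor binds there.

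Together the 40 members made up 0.624% to 0.834% of a library's reads. Their summed level was 6846, 6066 and 7353 CPM in space_microg replicates 1 to 3, 7223 and 6413 CPM in space_1g replicates 1 and 2, and 6888, 6558 and 8849.5 CPM in ground replicates 1 to 3. The groups overlapped, with the lowest sum in space_microg replicate 2 and the highest in ground replicate 3. The median of the members' mean levels was 123 CPM, against 23.8 CPM for all 16103 genes tested. The median of their SDs over the 8 libraries was 0.241 on the log2(CPM + 1) scale, against 0.298 for all genes tested. The genes were not matched for level, on which this SD can depend. GLA, the galactosidase lost in Fabry disease, had the smallest SD of the set (0.0482), at 27.1 to 30.3 CPM. IDUA, the iduronidase lost in Hurler syndrome, had the widest, 1.02.

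Per kilobase of exon, the order of mean levels began with PSAP at 553 CPM per kilobase, CTSB at 194, LAMP1 at 129, CD63 at 114 and CTSZ at 112. It ended with IDS at 6.16, IDUA at 5.54, ARSB at 4.81 and CLN3 at 0.973 CPM per kilobase. The length is the union of annotated exons rather than that of the transcript present, so the order depends in part on annotation. Other genes annotated on the same strand share 17.0% of the exonic bases of IDS and 25.5% of those of CLN3. PSAP encodes the precursor of the saposins, which present sphingolipids to their hydrolases, CTSB a cysteine protease and CTSZ a carboxypeptidase. GUSB, HEXA, MAN2B1 and GAA, which cleave glucuronic acid, hexosamine, mannose and glucose from their substrates, ranged over 60.9 to 94.1, 132 to 193, 44.4 to 76.0 and 86.3 to 192 CPM over the 8 libraries. NEU1, the sialidase, ranged over 89.0 to 141 CPM, and the sulfatases ARSA and ARSB over 23.5 to 69.1 and 34.1 to 52.1 CPM. Among the lipid genes, the ceramidase ASAH1 ran from 37.5 to 73.8 CPM, the thioesterase PPT1 from 111 to 192 CPM and the ganglioside activator GM2A from 51.2 to 88.5 CPM. The pump genes ATP6V0D1, ATP6V1H, ATP6AP1 and ATP6AP2 all lay between 66.9 and 204 CPM.

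**Figure D1:**
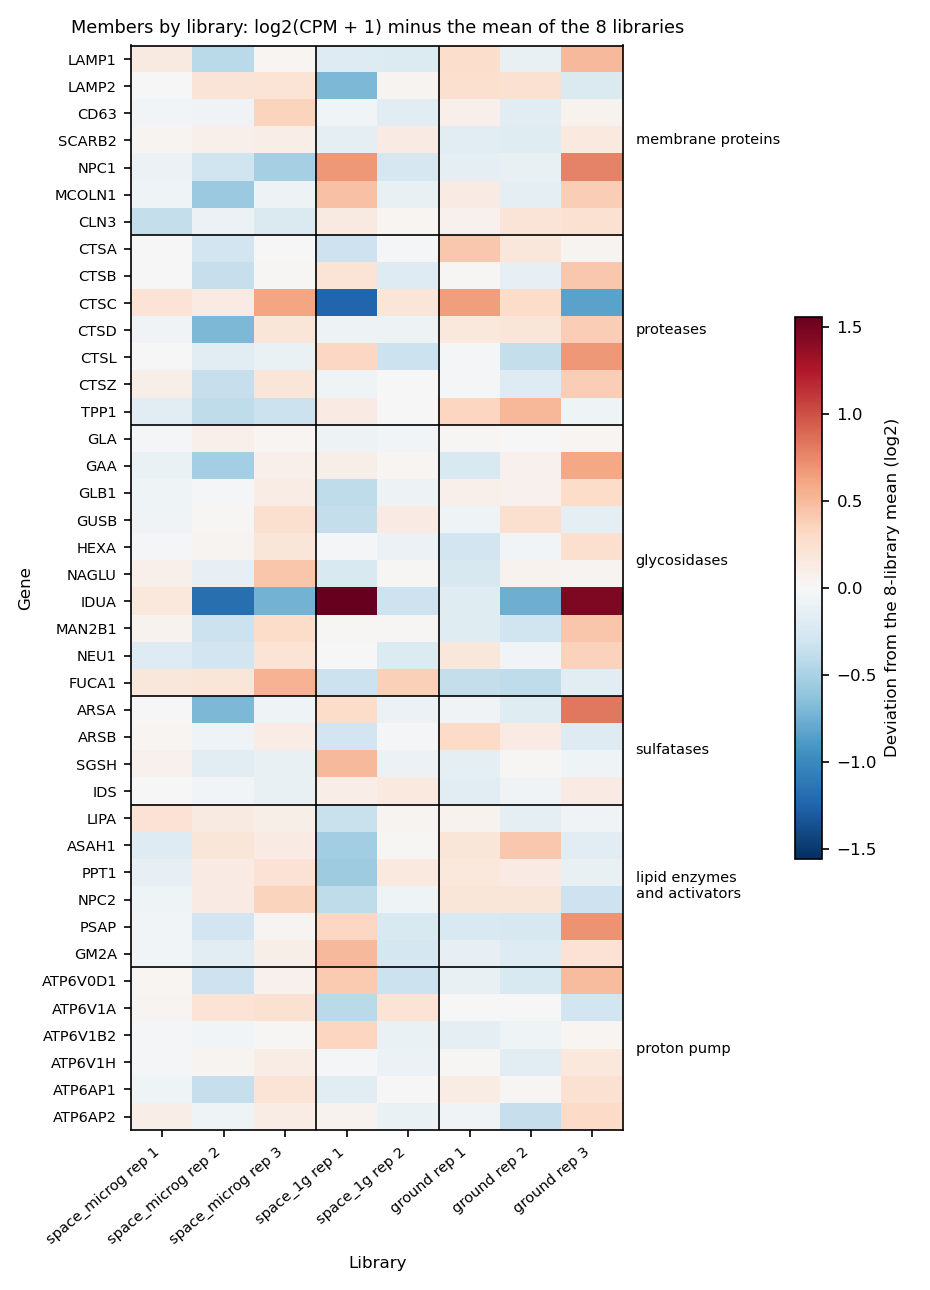
Each row is a member, ordered by role, and each column a library; the colour is log2(CPM + 1) minus that gene's mean over the 8 libraries. Space_1g replicate 1 and ground replicate 3 share strong colours, with IDUA and NPC1 high and CTSC low, while space_microg replicate 2 has IDUA, CTSD and ARSA low.

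The comparison of space_microg with ground bears on spaceflight in weightlessness. FUCA1 was the member highest above its ground level and TPP1 among those farthest below, and neither difference passed the test over all genes. Of the 40 members, 0 passed the limma threshold (two-sided, Benjamini-Hochberg adjusted p under 0.05 over all 16103 genes tested; all 3 groups in one fit), where the background was 0.0% of all genes. EdgeR and DESeq2 on the recovered reads likewise called 0 members (backgrounds 0.0% and 0.0186%), with smallest adjusted p of 0.842 and 0.53. At an unadjusted p under 0.05 limma found 2 members, FUCA1 higher and TPP1 lower, which is 5% of the set beside 4.32% of all genes (2.05% higher and 2.27% lower). At that limit edgeR found 2, again FUCA1 and TPP1, and DESeq2 3, with CLN3 besides (backgrounds 4.6% and 5.41%). The libraries of the groups did not overlap in 6 members, 3 higher and 3 lower, or 15% beside 14.4% of all genes (7.88% higher and 6.53% lower). These shares lie near the background. The median log2 difference of the members was -0.033, with 17 higher (42.5%, beside 47.0% of all genes) and 23 lower, against a median of -0.022 over all genes. In bulk RNA, fewer cells of a kind and less RNA per cell cannot be told apart.

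FUCA1, which removes fucose from glycoproteins, had 23.9, 24.0 and 31.0 CPM in space_microg, 16.4 and 27.4 CPM in space_1g, and 16.0, 15.7 and 18.4 CPM on the ground, in replicate order here and below. Every space_microg library lay above every ground library. The mean was 26.3 ± 4.05 CPM in space_microg and 16.7 ± 1.52 CPM on the ground (SD, n = 3 each), a log2 difference of 0.62 ± 0.22 (SE) on the log2(CPM + 1) scale (unadjusted p = 0.0229, limma adjusted p = 0.866). It was 0.69 without the libraries that stand apart (limma adjusted p = 0.304; 0.0303 to 0.999 over all alternatives, the lowest with array weights) and 0.58 with each library's GC and length trend removed. TPP1, a tripeptidyl peptidase lost in a childhood form of neuronal ceroid lipofuscinosis, had 159, 136 and 141 CPM in space_microg, 195 and 177 CPM in space_1g, and 225, 255 and 169.7 CPM on the ground. All space_microg libraries were below all ground libraries, of which replicate 3 was the nearest. The means were 145 ± 12.1 CPM in space_microg and 217 ± 43.4 CPM on the ground (SD, n = 3 each), a difference of -0.56 ± 0.17 (unadjusted p = 0.0117, limma adjusted p = 0.866). It was -0.72 without the libraries that stand apart (limma adjusted p = 0.229; 0.0224 to 0.999 over all alternatives, the lowest with array weights). FUCA1 lies on chromosome 1 from 23845077 to 23868294 and TPP1 on chromosome 11 from 6612763 to 6619485 (GENCODE v29, GRCh38). A processed transcript annotated on the same strand shares 14.2% of the exonic bases of TPP1.

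By role, 6 of 7 proteases were lower in space_microg than on the ground, with a median difference of -0.21, and 0 of 7 passed the adjusted threshold. Without ground replicate 3, which gives the same differences here as leaving out both libraries that stand apart, 5 of 7 were lower with a median of -0.15, and the members differed: CTSL and CTSZ were then higher and CTSC lower. CTSA, the protective protein that holds galactosidase and sialidase together, had 187, 150.1 and 186 CPM in space_microg and 248, 211 and 190.3 CPM on the ground, and these did not overlap. Its difference of -0.31 ± 0.17 was -0.13 with the GC and length trend removed, -0.20 without space_microg replicate 2 and -0.47 with array weights (limma adjusted p = 0.0347; up to 0.999 over the alternatives). CTSD, the main aspartic protease, had 177, 112 and 209 CPM in space_microg, 174 and 174 CPM in space_1g, and 205, 209 and 241 CPM on the ground. The space_microg and ground values overlapped, since space_microg replicate 3 reached the ground level. The CTSD difference of -0.44 ± 0.22 was -0.18 without space_microg replicate 2 and -0.28 with the trend removed. A further protein-coding gene annotated on the same strand shares 54.9% of the exonic bases of CTSD. CTSB, the most abundant protease, had 801, 623 and 809.8 CPM in space_microg, 923 and 694 CPM in space_1g, and 808, 729.9 and 1065 CPM on the ground, and differed by -0.21 ± 0.21 between space_microg and ground. The CTSB difference was -0.055 without ground replicate 3 and -0.088 without space_microg replicate 2, while dropping ground replicate 2 gave -0.33. CTSL and CTSZ differed by -0.19 ± 0.28 and -0.082 ± 0.20, and both changed sign without ground replicate 3, to 0.11 and 0.084. CTSZ also changed sign, to 0.085, when space_microg replicate 2 was dropped.

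Among the 7 membrane proteins the median difference between space_microg and ground was -0.30, with 4 lower and 3 higher. It was -0.16 with the libraries that stand apart left out (5 lower and 2 higher) and -0.14 without space_microg replicate 2. LAMP1, which with LAMP2 makes up much of the glycoprotein lining, had 375, 256 and 348 CPM in space_microg, 297 and 294 CPM in space_1g, and 413, 315 and 484 CPM on the ground, and differed by -0.30 ± 0.21. This was -0.16 without ground replicate 3 and -0.14 without space_microg replicate 2, while dropping ground replicate 2 gave -0.47. SCARB2, a glycoprotein that spans the lysosomal membrane, had 416, 429 and 433 CPM in space_microg, 368 and 440.5 CPM in space_1g, and 359, 356 and 448 CPM on the ground, and the tetraspanin CD63 had 254, 254 and 334 CPM in space_microg, 256 and 234 CPM in space_1g, and 276, 233 and 272 CPM on the ground. Both overlapped between all groups. CLN3, a membrane protein lost in juvenile neuronal ceroid lipofuscinosis, had 4.44, 5.57 and 5.00 CPM in space_microg, 6.73 and 6.15 CPM in space_1g, and 6.37, 7.09 and 7.29 CPM on the ground. Its space_microg and ground values did not overlap, and the difference of -0.40 ± 0.19 was -0.24 with the GC and length trend removed. A further gene annotated on the same strand shares 25.5% of its exonic bases.

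Glycosidases, which trim sugar chains, were mixed, with 6 of 10 higher and 4 lower in space_microg and a median of 0.018 against the ground, or 5 higher and 5 lower without ground replicate 3. NAGLU, which removes N-acetylglucosamine from heparan sulfate, had 47.4, 41.0 and 61.0 CPM in space_microg, 37.7 and 45.3 CPM in space_1g, and 37.5, 46.5 and 46.3 CPM on the ground. The groups overlapped, and the NAGLU difference of 0.18 ± 0.19 became 0.026 when space_microg replicate 3 was left out, 0.080 when ground replicate 1 was, and 0.31 when space_microg replicate 2 was. It was 0.36 with the GC and length trend removed. All 4 sulfatases were lower in space_microg, with a median of -0.033 and a widest difference of -0.45 ± 0.30 in ARSA, which clears sulfatide. ARSA was at -0.14 without ground replicate 3, -0.23 without space_microg replicate 2 and -0.29 with the trend removed, and 3 of the 4 were lower without ground replicate 3 (median -0.074). LIPA, the acid lipase that frees cholesterol from lipoproteins, had 45.0, 42.4 and 40.7 CPM in space_microg and 39.8, 34.3 and 36.7 CPM on the ground, without overlap, a difference of 0.21 ± 0.16 that was 0.089 with the trend removed. PSAP, the most abundant member, had 1507, 1258 and 1594 CPM in space_microg, 1941 and 1310.3 CPM in space_1g, and 1315, 1301 and 2519 CPM on the ground, with overlap between all groups. Of the 6 proton pump genes, 4 were higher, with a median of 0.045, or 5 with a median of 0.11 without ground replicate 3 and 2 (median -0.060) when ground replicate 2 was dropped. ATP6V1A, the catalytic subunit, had 164, 186 and 188 CPM in space_microg, 119 and 185 CPM in space_1g, and 161, 159 and 129.7 CPM on the ground, with all space_microg values above all ground values. The ATP6V1A difference was 0.26 ± 0.19, 0.16 without ground replicate 3 and 0.12 with the trend removed. The members whose difference in this comparison was not given above ran from -0.75 in IDUA to 0.29 in CTSC, both with overlap. Both extremes rested on ground replicate 3, without which IDUA was at -0.11 and CTSC at -0.15. Over the 40 members, 20 had a difference whose sign depended on which single library was left out, FUCA1 and TPP1 not among them.

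**Figure D2:**
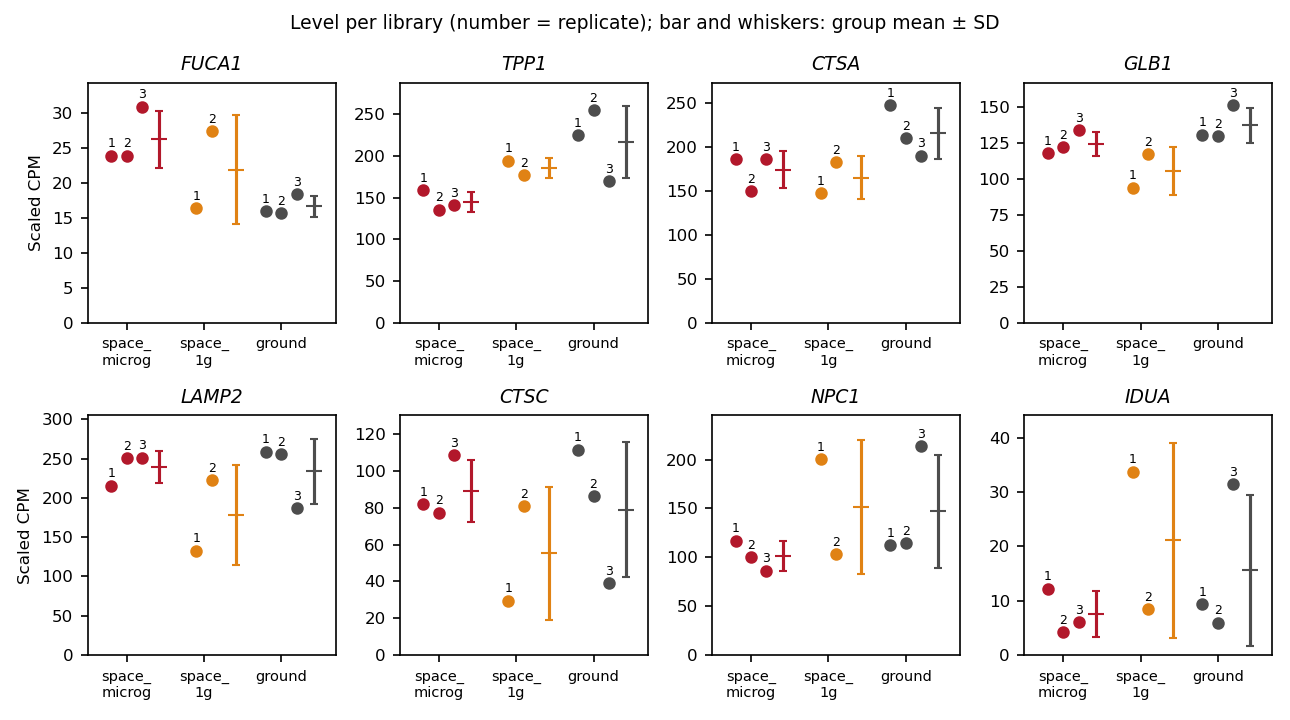
CPM in each library for 8 members, with the replicate number above each point and the group mean ± SD beside the points (n = 3 for space_microg and ground, n = 2 for space_1g; axes start at 0). FUCA1 and TPP1 separate space_microg from ground without overlap, whereas in CTSC, NPC1 and IDUA space_1g replicate 1 and ground replicate 3 lie away from the rest.

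The 9 members whose promoter stretches are printed above were compared with the 20 whose windows lack the hexamer, as a description without a test. Of those with the hexamer, 8 were lower in space_microg than on the ground, CD63 being the exception, with a median of -0.31. Of those without it, 10 were lower, with a median of 0.0023. Transcripts of the members with the hexamer also had a higher median GC content, 58.1% against 48.8%. Their median was -0.17 with the GC and length trend removed (7 lower), -0.16 without space_microg replicate 2, and also -0.16 with the libraries that stand apart left out. Members without the hexamer had medians of -0.011, 0.027 and -0.0026 in the same settings. In space_1g against ground the medians were -0.089 with the hexamer (8 of 9 lower) and -0.10 without it (12 of 20 lower), and both flight comparisons share the ground libraries. With the libraries that stand apart left out they were -0.16 (8 lower) and -0.022 (10 lower). In space_microg against space_1g, 5 of the 9 with the hexamer were lower (median -0.11), and 7 of the 20 without it (median 0.079). There the median of the 9 turned to 0.076 with the trend removed (2 lower) and to 0.10 without space_microg replicate 2 (3 lower). It was -0.076 with the libraries that stand apart left out (5 lower). The part of GC content in these values was not tested further. FUCA1 and TPP1 have no CACGTG in their windows.

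The comparison of space_1g with ground bears on spaceflight with weight restored. GLB1 had the smallest p, and more members lay below their ground levels than above, without passing. Limma called 0 members (background 0.0%), and edgeR and DESeq2 called 0 (backgrounds 0.0% and 0.0%). Unadjusted, limma found 1 member, GLB1, lower, which is 2.5% beside 0.826% of all genes lower and 1.55% in either direction. EdgeR found 0 and DESeq2 1, also GLB1 (backgrounds 1.41% and 2.03%). Of the 40, 29 were lower (72.5%, beside 48.8% of all genes) and the median was -0.089, against 0.0061 over all genes, a difference in shares that was not tested. Without ground replicate 3, 20 were lower and 20 higher, and with both libraries that stand apart left out 24 were lower. Groups did not overlap in 6 members, each of them lower in space_1g, namely GLB1, CTSA, LAMP1, CTSD, ATP6AP1 and GLA. That is 15% beside 5.73% of all genes lying lower, or 10.7% in either direction. The median of the members was 0.0024 when ground replicate 3 was left out, -0.065 without space_1g replicate 2, -0.14 without ground replicate 1, -0.15 without ground replicate 2, and -0.060 with both libraries that stand apart left out. It was -0.11 without space_1g replicate 1 (30 lower) and -0.10 with the GC and length trend removed (29 lower). With replicate number as a block it was 0.0061 (20 lower).

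GLB1, the galactosidase whose activity marks senescent cells, had 118.1, 122.0 and 134.0 CPM in space_microg, 94.0 and 117.5 CPM in space_1g, and 131.0, 130.0 and 151.5 CPM on the ground. Both space_1g libraries were below every ground and every space_microg library, and space_microg overlapped the ground. The means were 106 ± 16.6 CPM in space_1g (SD, n = 2) and 138 ± 12.1 CPM on the ground (SD, n = 3), a difference of -0.38 ± 0.16 (unadjusted p = 0.0445, limma adjusted p = 1.00). It was -0.22 without space_1g replicate 1 and -0.15 with both libraries that stand apart left out. CTSA, binding partner of GLB1, had 148 and 183 CPM in space_1g and 248, 211 and 190.3 CPM on the ground. It differed by -0.38 ± 0.19, or -0.23 without space_1g replicate 1 and -0.58 with array weights. LAMP1 differed by -0.43 ± 0.23 without overlap. LAMP2, which also serves chaperone-mediated autophagy, had 216, 250.1 and 251 CPM in space_microg, 133 and 223 CPM in space_1g, and 259, 256 and 186 CPM on the ground. The lowest value was that of space_1g replicate 1, and the difference of -0.42 ± 0.25 was -0.052 without it and -0.79 without space_1g replicate 2. Leaving out both libraries that stand apart gave -0.21.

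Members on the higher side in space_1g were few, 11 of 40. SGSH, the sulfatase that acts on heparan sulfate, had 61.0, 51.4 and 53.3 CPM in space_microg, 83.1 and 54.5 CPM in space_1g, and 52.4, 58.7 and 55.4 CPM on the ground. Its space_1g replicate 1 exceeded all other libraries, so the difference of 0.27 ± 0.20 was -0.026 without it and 0.58 without space_1g replicate 2. IDS, which removes sulfate from iduronate, had 52.1, 50.3 and 48.0 CPM in space_microg, 55.7 and 57.9 CPM in space_1g, and 46.1, 49.9 and 56.7 CPM on the ground, an overlap with a difference of 0.16 ± 0.15 that was 0.092 without ground replicate 1, or 0.27 with both libraries that stand apart left out. ATP6V1B2, a pump subunit of the peripheral sector, had 122, 119.9 and 126 CPM in space_microg, 156 and 115 CPM in space_1g, and 111, 119 and 126 CPM on the ground, with space_1g replicate 1 the highest. The difference of 0.18 ± 0.17 turned to -0.044 without that library. FUCA1 was split in space_1g, where replicate 2 matched the space_microg level and replicate 1 the ground level. The FUCA1 difference of 0.33 ± 0.25 was 0.69 without the first space_1g library and -0.021 without the second. Leaving out both libraries that stand apart gave 0.75 (limma adjusted p = 0.895; 0.597 to 1.00 over all alternatives). All 7 proteases were lower, with a median of -0.20, and the other roles had medians of -0.084 for membrane proteins, -0.070 for glycosidases, 0.030 for sulfatases, -0.18 for lipid enzymes and activators and -0.0091 for the proton pump. These depended on single libraries. Without ground replicate 3, 4 of 7 proteases were lower, and with both libraries that stand apart left out 6 were (median -0.25), CTSZ being higher. With both left out the medians were -0.11 for membrane proteins, 0.093 for glycosidases, -0.0025 for sulfatases, -0.052 for lipid enzymes and activators and -0.0062 for the proton pump.

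**Figure D3:**
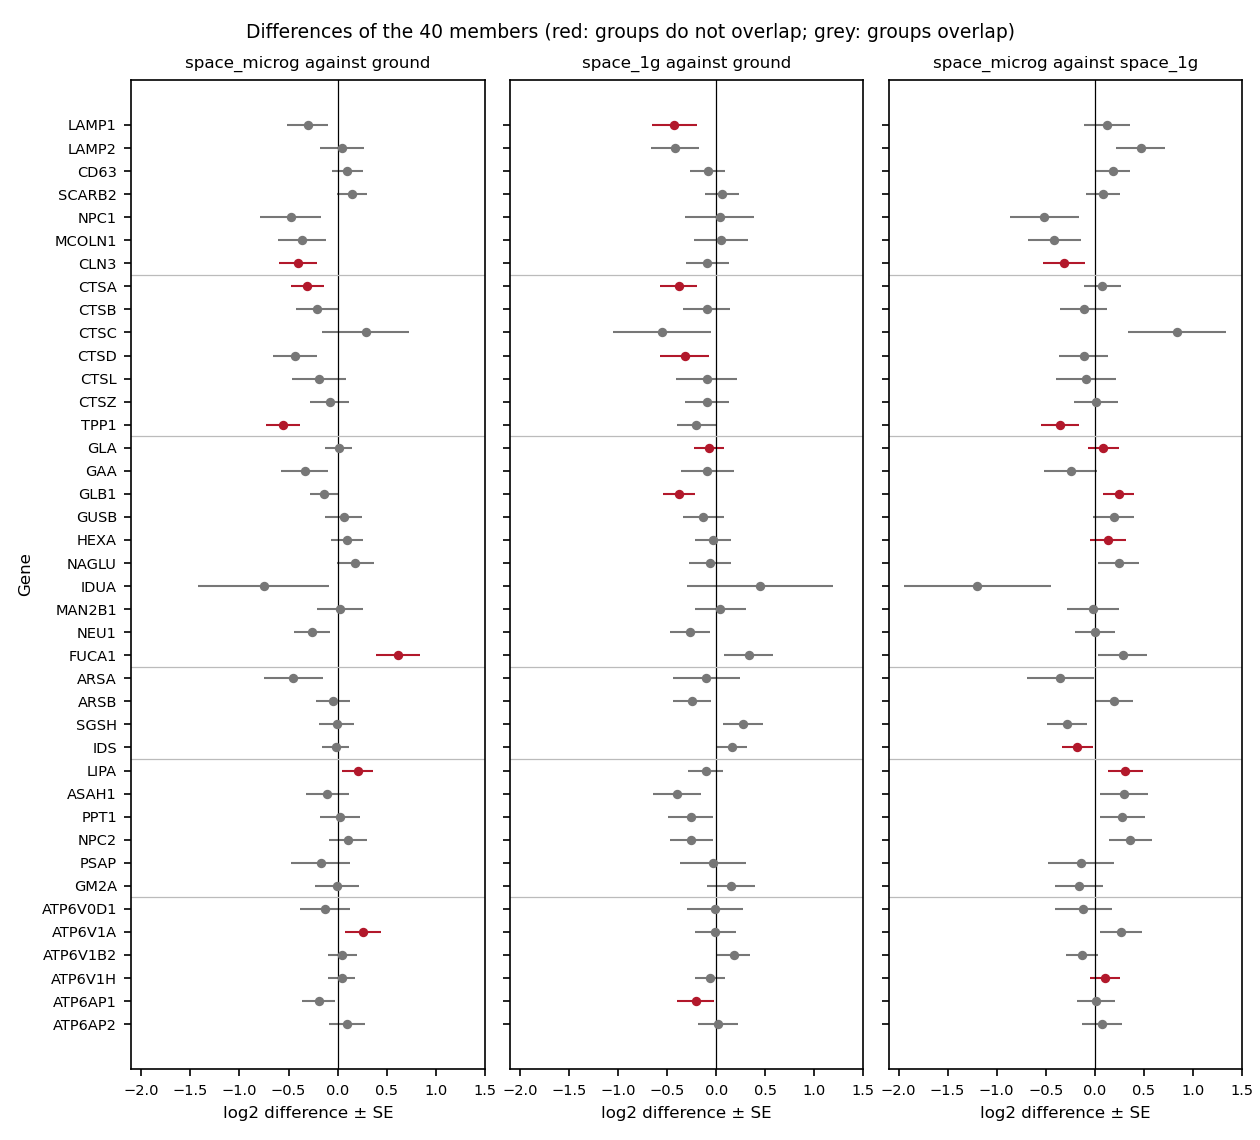
Log2 differences ± SE of the 40 members from limma in the 3 comparisons, in the order of roles; red marks members whose groups do not overlap. Most bars cross or approach 0, with FUCA1 at 0.62 and TPP1 at -0.56 in space_microg against ground, and IDUA and CTSC have the widest errors.

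The comparison of space_microg with space_1g bears on weight in orbit. The widest differences, in IDUA, CTSC and NPC1, depended on which space_1g library was used. Limma, edgeR and DESeq2 called 0 members (backgrounds 0.0%, 0.0% and 0.0%), and 0 had an unadjusted limma p under 0.05, beside 1.32% of all genes. EdgeR and DESeq2 found 0 and 0 at that limit (backgrounds 1.37% and 2.11%). Groups did not overlap in 8 members, 20% beside 14.2% of all genes (7.24% higher and 6.91% lower): LIPA, GLB1, GLA, HEXA and ATP6V1H were higher and TPP1, CLN3 and IDS lower. The median difference was 0.045, with 23 higher and 17 lower (higher in 46.6% of all genes), against -0.025 over all genes. The members' median turned to -0.030 without space_microg replicate 3 and was 0.14 without space_microg replicate 2 and 0.018 without space_microg replicate 1. TPP1 differed by -0.35 ± 0.19 (range -0.42 to -0.29 with each library left out in turn), and its space_1g values lay above all space_microg values and within the ground range. LIPA had 45.0, 42.4 and 40.7 CPM in space_microg and 29.7 and 39.2 CPM in space_1g. The LIPA difference of 0.31 ± 0.18 was 0.12 without space_1g replicate 1 and 0.19 with the GC and length trend removed. NPC2, which hands cholesterol to NPC1, had 158, 181 and 211 CPM in space_microg, 126 and 158 CPM in space_1g, and 190.1, 189.5 and 133 CPM on the ground. Its difference of 0.36 ± 0.22 was 0.20 without space_1g replicate 1 and 0.21 with the trend removed.

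Many of the wider differences in this comparison followed space_1g replicate 1, and ground replicate 3 lay on the same side for IDUA, CTSC, NPC1 and MCOLN1. IDUA had 12.2, 4.23 and 6.07 CPM in space_microg, 33.8 and 8.42 CPM in space_1g, and 9.39, 5.94 and 31.5 CPM on the ground, and the values in these libraries were the highest. A gene annotated on the opposite strand shares 5.60% of the exonic bases of IDUA. The IDUA difference between space_microg and space_1g, -1.20 ± 0.75, was -0.26 without space_1g replicate 1 and -2.14 without space_1g replicate 2. CTSC, the dipeptidyl peptidase that activates granule proteases, had 82.1, 77.3 and 109 CPM in space_microg, 29.5 and 80.8 CPM in space_1g, and 112, 86.2 and 39.1 CPM on the ground, and here the same libraries were the lowest. Its difference of 0.84 ± 0.50 was 0.13 without space_1g replicate 1. NPC1, which moves cholesterol out of the lysosome, had 117, 99.96 and 86.4 CPM in space_microg, 200.2 and 103 CPM in space_1g, and 112, 115 and 214 CPM on the ground, a difference of -0.52 ± 0.35 that was -0.042 without that library. MCOLN1, the lysosomal calcium channel, had 16.4, 11.2 and 16.3 CPM in space_microg, 24.1 and 15.9 CPM in space_1g, and 18.9, 15.6 and 22.9 CPM on the ground. The MCOLN1 difference of -0.41 ± 0.27 was -0.12 without space_1g replicate 1, -0.24 without space_microg replicate 2 and -0.20 with the GC and length trend removed. For LAMP2 it was 0.47 ± 0.25, 0.10 without space_1g replicate 1 and 0.21 with the trend removed.

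Set against the other library or libraries of its own group, space_1g replicate 1 was higher in 21 of 40 members and ground replicate 3 in 28. The median deviation of the members was 0.0081 and 0.21, against 0.0012 and -0.0031 over all genes. They deviated in the same direction in 29 members (19 up in both, 10 down in both), or 72.5% beside 72.9% of all genes. Members well above their group in both included IDUA (1.88 and 1.94 on the log2 scale), NPC1 (0.95 and 0.91), CTSL (0.65 and 0.88), ATP6V0D1 (0.74 and 0.67) and PSAP (0.57 and 0.94). Those well below in both included CTSC (-1.42 and -1.31), LAMP2 (-0.74 and -0.46) and ASAH1 (-0.56 and -0.48), the acid ceramidase. Members of the same role thus lay on both sides. These 8 genes were picked out after their values were seen. Ground replicate 3 held the highest value of 19 of the 40 members and the lowest of 0, while space_1g replicate 1 held the highest of 5 and the lowest of 12. Highest and lowest values were not counted over all genes, so these counts do not show a trait of the set.

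Space_microg replicate 2 held the lowest value of 14 members and the highest of 1, again without a count over all genes. Its difference from the mean of replicates 1 and 3 was negatively related to transcript GC content across the 40 members (Spearman's rho -0.753, and -0.628 across 13842 annotated genes). In space_1g replicate 1 and ground replicate 3 the same measure was 0.448 and 0.484 across the members (0.387 and 0.424 across all). Genes within a library share its preparation and depth, so these values are a description. The members' transcripts had a median GC content of 51.4%, between 37.3% in ASAH1 and 69.3% in IDUA, against 48.3% over all annotated genes. The most GC-rich members, IDUA, ARSA, NAGLU, GAA and CTSD, differed by -0.89, -0.67, -0.38, -0.52 and -0.77 in space_microg replicate 2. The part of GC content in the group differences was not tested beyond the values with its trend removed.

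**Figure D4:**
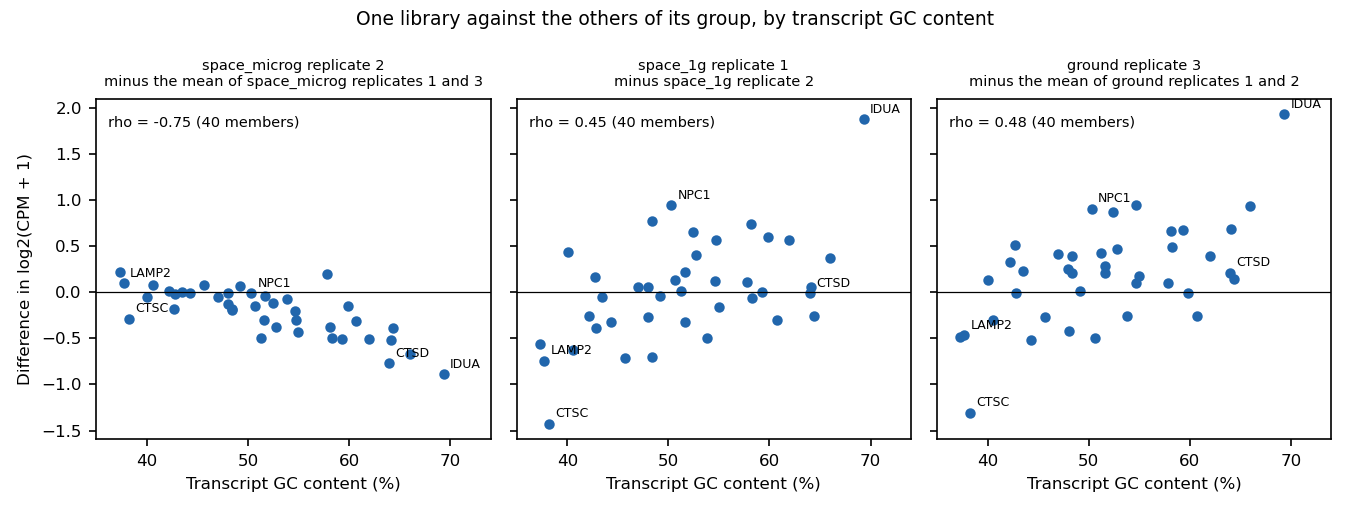
Each point is one of the 40 members, placed by the GC content of its longest annotated transcript (x axis, percent) and by how far 1 library differed from the other library or libraries of its group (y axis, log2(CPM + 1)). In space_microg replicate 2 GC-rich members lie low, with IDUA at -0.89, and in space_1g replicate 1 and ground replicate 3 IDUA lies high and CTSC low.

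Other genes of the pathway were taken from 5 lists, and 0 of their members passed in any comparison in limma. In space_microg against ground the medians were -0.12 for 21 regulators of lysosome biogenesis, 0.018 for 32 further hydrolases, -0.040 for 12 further pump subunits, -0.019 for 24 further membrane proteins and -0.040 for 30 genes of sorting and fusion. CTSO, a cysteine protease, was at 4.71 ± 0.533 CPM in space_microg and 2.30 ± 0.241 CPM on the ground (SD, n = 3 each), with a difference of 0.79 ± 0.22 and no overlap (limma adjusted p = 0.866). GALNS, a sulfatase of keratan sulfate, differed by -0.51 ± 0.16, the cobalamin exporter LMBRD1 by 0.72 ± 0.27, the chloride exchanger CLCN7 by -0.53 ± 0.22, the pump subunit ATP6V1G1 by 0.40 ± 0.15, and the sorting adaptors GGA3 and AP3B1 by -0.50 ± 0.20 and 0.33 ± 0.14. In each of these the groups did not overlap, as in 14.4% of all genes, and none passed. They were picked by the smallest p of their lists here, so the lack of overlap adds no support. Groups lay apart upward and downward in 4 and 2 of the 32 hydrolases and 2 and 0 of the 12 pump subunits. Among the 24 membrane proteins these counts were 5 and 2, among the 30 sorting genes 2 and 2, and among the 21 regulators 1 and 2. In space_1g against ground the list medians were -0.074, -0.16, 0.022, -0.062 and -0.0081 in the same order. GALNS differed there by -0.44 ± 0.18, without overlap, beside 5.73% of all genes lying lower without overlap. In space_microg against space_1g the list medians were -0.082, 0.12, -0.014, 0.12 and -0.067, and CTSO differed by 0.66 ± 0.25.

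The factors known to bind such E-boxes, TFEB, TFE3 and MITF, were all measured and are given for that reason. TFEB had 16.5, 8.87 and 11.8 CPM in space_microg, 22.9 and 12.8 CPM in space_1g, and 14.0, 12.7 and 24.3 CPM on the ground. Its highest values were those of the libraries that stand apart. TFE3 had 62.3, 45.8 and 53.8 CPM in space_microg, 77.4 and 47.4 CPM in space_1g, and 56.4, 48.3 and 75.0 CPM on the ground, with the same libraries highest. MITF, the least abundant, had 2.39, 2.66 and 2.88 CPM in space_microg, 2.80 and 2.91 CPM in space_1g, and 4.88, 3.31 and 3.95 CPM on the ground. All space_microg and space_1g values of MITF lay below all ground values, with differences of -0.46 ± 0.21 and -0.38 ± 0.23 that did not pass (limma adjusted p = 0.866 and 1.00), and both comparisons share the ground libraries. Of all genes, 6.53% and 5.73% lay lower without overlap in these comparisons. MITF also had the smallest p of the regulators in space_microg against ground. TFEB and TFE3 overlapped between all groups. RNA levels of TFEB and TFE3 do not show their activity, which is set by their move into the nucleus.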

How the data were processed

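RNA of HMEC-1 cells was sequenced in 8 libraries (3 space_microg, 2 space_1g, 3 ground), per the labels' protocols from total RNA after depletion of ribosomal RNA, with a kit that keeps the strand. The authors deposited one table of normalised signal per gene, named CPM per the labels. The submitters' processing notes list edgeR, featureCounts, STAR 2.5.3, FastQC and CASAVA 1.8.2 and the builds GRCh38 and hg38, but not what each did. Whether counting used the strand is not given in these sources. In every library 100% of the deposited values were whole multiples of 1 read within 1e-06 read, and the scaling equals edgeR's TMM. Columns sum to 966156 to 1061177 rather than to 1 fixed total, so the unit is scaled CPM, and the test planned for CPM was kept. Libraries of a group differed by far more than counting error (chi-square over its degrees of freedom 19.3 to 205), so each was counted as 1 replicate.

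Values were analysed as log2(CPM + 1), for genes with 1 CPM or more in 2 or more libraries (16103 of 16153 genes, all 40 members included), with limma 3.58.1 in R 4.3.3 (lmFit and eBayes, trend on), all groups in one fit without covariates. Fold changes on this scale understate those of low genes. EdgeR 4.0.16 (quasi-likelihood) and DESeq2 1.42.0 were run on the recovered reads. The limma step was tested on simulated reads with the same spread in every library, no library standing apart and no GC trend. That checks the code and not the calls in these 8 libraries. Members, lists and alternatives were chosen with earlier results of these data known; leaving out both libraries that stand apart was added after the data were seen. Per-library values are given for the 4 members per direction with the smallest p in a comparison and the 5 most abundant, and of each further list the 2 members with the smallest p could be named. Lengths, GC content and positions are from GENCODE v29 (13867 symbols matched, 85.8%); exonic length is the union of basic exons. A depth of 0 reads would allow up to 3 reads, 0.0855 to 0.12 CPM, for counting error only.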

Additional observations from a re-analysis of the deposited data

How the results depend on the processing

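Over the pseudocounts, filters, scalings, fits and left-out libraries, the count of members past the threshold was 0 in each comparison, with 1 exception: array weights gave 3 members (CTSA, TPP1 and FUCA1, limma adjusted p = 0.0347, 0.0224 and 0.0303) and 615 genes in space_microg against ground, from weights that ran from 0.182 to 43.4 (ground replicate 1) and whose estimation stopped before convergence. The count of all genes was otherwise 0, except for 3 in DESeq2 in the same comparison. With each library left out in turn, the members' median ran from -0.10 to -0.0034 in space_microg against ground, from -0.15 to 0.0024 in space_1g against ground and from -0.030 to 0.14 in space_microg against space_1g, beside a spread between replicates of 0.0969 (SD). The sign of the difference depended on which library was left out in 20 of 40 members in space_microg against ground, 25 in space_1g against ground and 19 in space_microg against space_1g, and 11, 15 and 15 changed sign with both libraries that stand apart left out. Of the members with the smallest p in space_1g against ground, these were FUCA1 (-0.021 to 0.69 over the left-out libraries), SGSH (-0.026 to 0.58; -0.027 without both libraries that stand apart) and ATP6V1B2 (-0.044 to 0.40; -0.00021 without both); dropping a space_1g library leaves 1, whose spread the fit takes from the other groups. Same-numbered space_microg and ground libraries deviated from their group means with correlations of -0.397, 0.556 and 0.0505. For space_microg and space_1g these were 0.679 and 0.205, and for space_1g and ground -0.678 and 0.601. The signs were mixed, and the numbers were not treated as pairs. With the replicate block the members' median was -0.056 in space_microg against space_1g, 0.0061 in space_1g against ground and -0.033 in space_microg against ground, with 0 members called; the cause was not tested. Depth does not limit these genes as much as the spread between 2 or 3 libraries.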

Other observations

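The annotated locus of LIPA on chromosome 10 spans the interferon-induced genes IFIT1, IFIT2 and IFIT3, which lie on the opposite strand and share 0 exonic bases with it. IFIT1 had 64.8, 20.1 and 14.4 CPM in space_microg, 156 and 10.5 CPM in space_1g, and 16.6, 4.10 and 179.8 CPM on the ground, and IFIT3 had 71.8, 34.9 and 26.8 CPM in space_microg, 226 and 18.2 CPM in space_1g, and 23.0, 20.4 and 202 CPM on the ground. LIPA itself had 45.0, 42.4 and 40.7 CPM in space_microg, 29.7 and 39.2 CPM in space_1g, and 39.8, 34.3 and 36.7 CPM on the ground, with its lowest value in space_1g replicate 1, where the IFIT genes were at or near their highest. In ground replicate 3, where IFIT1 was at its highest, LIPA lay within the range of the other ground libraries. These genes were named after their values were seen.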
